A study of Homo sapiens with 6 samples.

Results

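The wild-type D283 transcriptome is described from 3 of the 6 RNA sequencing libraries of a medulloblastoma study, chosen as all libraries whose label gives the genotype WT. All 31785 gene rows of the table enter the description. D283 Med is an established line of human medulloblastoma, a childhood cancer of the cerebellum. The labels say that cells were kept in serum-containing DMEM/F12 medium and total RNA was taken from them. The other 3 libraries came from Musashi-1 knockdown cells and were not compared here. Neither the handling of the wild-type cells (a control vector or none) nor the origin of the 3 libraries (separate cultures or 1) is known, so an SD below may be partly technical. The libraries are called WT 1, WT 2 and WT 3 as their columns are numbered. Those columns bear a heading that no label explains, and they were taken as wild type because the knockdown columns name themselves.

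Medulloblastomas fall into the WNT, SHH, Group 3 and Group 4 molecular subgroups. Group 3 tumours are known for high MYC, a transcription factor that drives growth and ribosome production, and for OTX2, a homeobox factor of the embryonic midbrain, retina and cerebellum. Many of them also express genes of retinal photoreceptors, and NPR3, the clearance receptor that removes natriuretic peptides, is a marker of the subgroup. D283 Med is widely used as a MYC-driven Group 3 line.

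Levels are given as normalised reads, which are read counts divided by the authors' size factor for each library, recovered from the deposited log2 values. On these rows WT 1 held 17299671 reads, WT 2 held 38790342 and WT 3 held 29173018. A row was called detected when its mean over the 3 libraries was at least 10 normalised reads. By this rule 77.9% of all protein-coding rows were detected, the share to set beside each count of detected list genes below. For comparison between genes, normalised reads were divided by the length in kilobases of the longest GENCODE 29 transcript. The level per kilobase was then ranked as a percentile among the 12846 detected protein-coding genes. A mean ± SD is over n = 3 libraries throughout. In a bulk sample fewer cells of a type and less RNA per cell cannot be told apart.

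All 3 markers of the line were high in every library. MYC (chr8:127735434-127741434 in GRCh38) measured 18519, 14128 and 17273 normalised reads in WT 1, WT 2 and WT 3, which is 7033 ± 956 per kilobase and the 99.0th percentile, rank 123. OTX2 (chr14:56799905-56810479) measured 24879, 26228 and 19886 normalised reads, 7886 ± 1113 per kilobase, at the 99.2nd percentile and rank 108. For NPR3 (chr5:32689070-32791724) the libraries gave 13196, 14684 and 11277 normalised reads, 1777 ± 233 per kilobase, at the 94.6th percentile and rank 689. MYC was highest in WT 1 and lowest in WT 2, whereas OTX2 and NPR3 were highest in WT 2 and lowest in WT 3. Per kilobase, OTX2 stood at 1.14 times MYC, with 0.908 in WT 3 and 1.46 in WT 2, so the order of these neighbours changed between libraries. NPR3 stayed below MYC in each library, at 0.258 ± 0.067 of its level per kilobase.

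**Figure D1:**
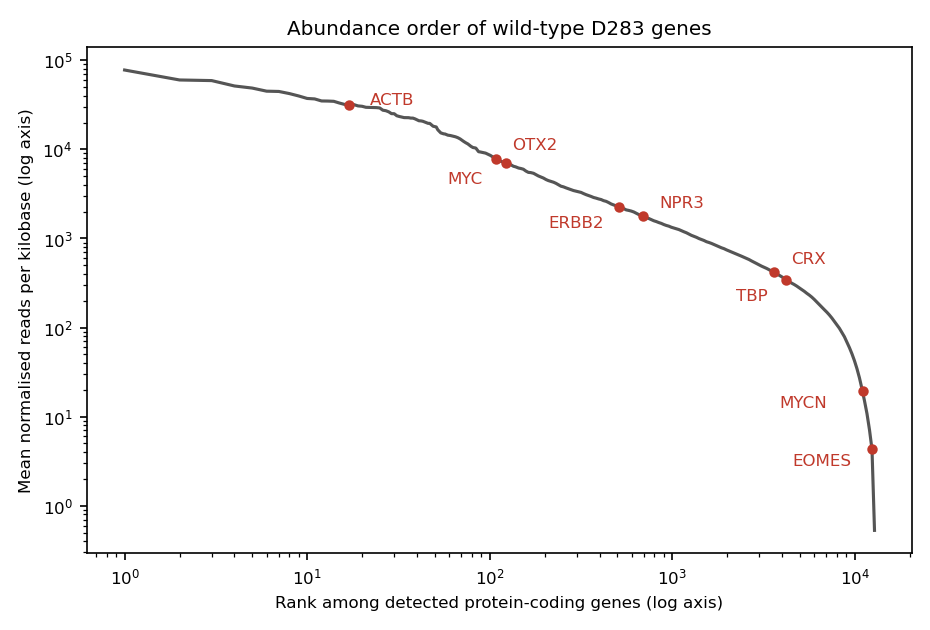
Mean normalised reads per kilobase over 3 libraries (log axis) against rank (log axis) for the detected protein-coding genes, with named genes as points. MYC and OTX2 lie at ranks 123 and 108 of 12846, NPR3 at 689, and MYCN at 11042.

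Within the MYC family the line carried 1 dominant member. MYCN, the family member amplified in some other medulloblastomas, measured 71.7, 40.4 and 37.6 normalised reads (19.2 ± 7.29 per kilobase). MYCL, the third family gene, measured 622, 735 and 446 (185 ± 44.7 per kilobase). Per kilobase MYC exceeded MYCN by 391 ± 111 times, from 284 times in WT 1 to 505 times in WT 3, and MYCL by 40.2 ± 13.4 times. MAX, the partner with which MYC binds DNA, was present at 1252 ± 73.00 normalised reads, so that per kilobase MYC exceeded it by 17.7 ± 2.11 times.

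All 15 measured genes of the MYC network passed the detection level, with a median at percentile 55.4, beside 35.8 for all protein-coding genes with undetected genes set to 0. The antagonists of MYC that also pair with MAX lay in the middle of the range. MXI1 measured 986 ± 146 normalised reads (percentile 61.8), MXD3 793 ± 278 (67.5), MXD4 756 ± 105, MNT 512 ± 75.6 (36.7) and MXD1 350.2 ± 140.4 (27.9). Of the exon bases of MXD3 40.4% are shared with another annotated gene, and how shared reads were counted is not known. MGA, a very large repressor of the same network, stood at 1435 ± 76.6 normalised reads and percentile 36.1. PVT1, the long noncoding neighbour of MYC, was read at 376, 283.2 and 513 normalised reads.

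The 4 lists of subgroup genes lay at different levels. All 7 Group 3 genes were detected, 6 of them above the median detected gene and 4 in its top 10%. The list median was percentile 90.7, with an SD of 12.8 over the libraries. MYC and NPR3, already named above as markers of the line, belong to this list and raise its median. The other genes stood at 98.4 (MAB21L2), 90.7 (IMPG2), 66.5 (NRL), 60.4 (GABRA5) and 17.3 (EYS). The middle gene of the list, IMPG2, stood at percentile 93.8 in WT 1, 92.7 in WT 2 and 71.0 in WT 3. Of the 5 measured Group 4 genes 4 were detected, at a median percentile of 8.28. In the SHH list 3 of 4 measured genes were detected, with a median of 5.37, and in the WNT list 1 of 3, with a median of 0. Across all protein-coding rows 77.9% were detected. KCNA1 (Group 4), ATOH1 (SHH), WIF1 and DKK2 (both WNT) were not analysed here. The lists are short, and their genes had been named for these subgroups before, so the counts describe this line and classify nothing.

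Beside MYC and NPR3, the Group 3 list was carried by MAB21L2 and IMPG2. MAB21L2, a factor of eye development, measured 14909.6, 12309.7 and 9951 normalised reads and stood at percentile 98.4. However, 53.8% of the exon bases of MAB21L2 are shared with another annotated gene, and how shared reads were counted is not known. IMPG2, a proteoglycan of the matrix between photoreceptors, measured 14226, 11547 and 3216, with WT 3 far below the other libraries (percentile 71, against 93.8 in WT 1). GABRA5, a GABA receptor subunit named for Group 3, gave 1029, 711 and 896 normalised reads (percentile 60.4). NRL, the rod photoreceptor factor, gave 786, 1034 and 297, and EYS, a photoreceptor protein, gave 225, 496 and 142. As with IMPG2, both were lowest in WT 3.

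Genes that mark the other subgroups were mostly low, but their levels overlapped those of the Group 3 list. Per kilobase RBM24 (Group 4, percentile 37.0) and PDLIM3 (SHH, 33.3) stood above the Group 3 gene EYS (17.3). RBM24, an RNA-binding protein, was the highest of the Group 4 list at 246, 290.1 and 307 normalised reads (percentile 37.0). UNC5D, a netrin receptor, gave 77.6, 107 and 69.8, and KHDRBS2 gave 39.5, 28.4 and 19.96. EOMES, a T-box factor of unipolar brush cell precursors and a Group 4 marker, gave only 5.86, 19.6 and 18.4. Among SHH genes PDLIM3, a cytoskeletal adaptor, reached 394, 506 and 437, SFRP1, a secreted Wnt antagonist, 58.6, 66.2 and 46.8, and HHIP, a Hedgehog target, 21.96, 13.9 and 9.21. Of the WNT list TNC, a matrix protein, gave 19.03, 23.97 and 20.7, GAD1, the enzyme that makes GABA, had reads in WT 2 only (1.26), and EMX2, a forebrain homeobox factor, had none. If reads are independent, a count of 0 over all reads of the 3 libraries allows up to 0.0352 RPM (3 reads in all).

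**Figure D2:**
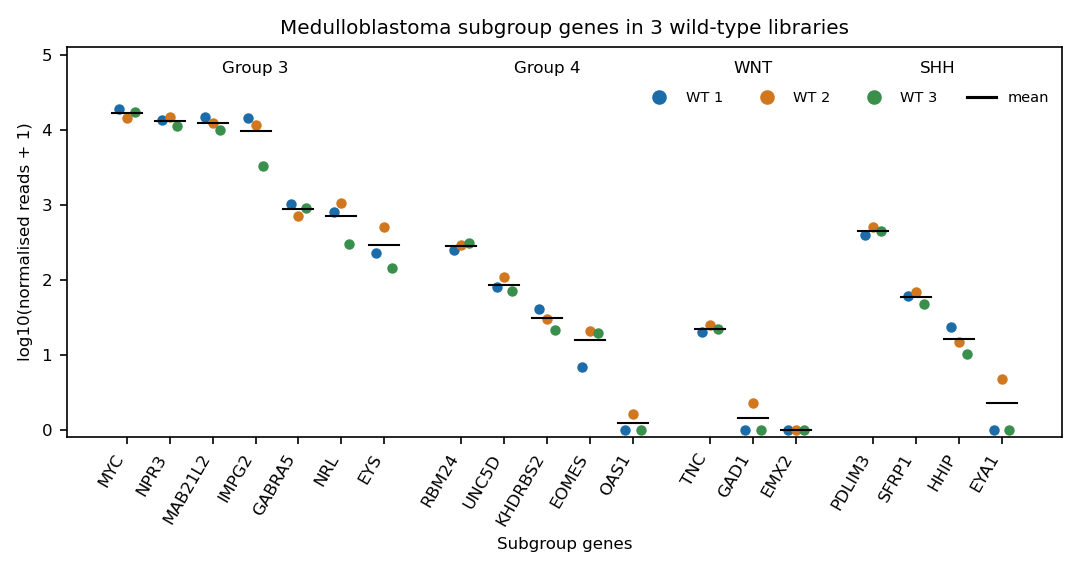
Log10 of normalised reads plus 1 for each measured subgroup gene, with 1 point per wild-type library and a line at log10 of the mean normalised reads plus 1. MYC, NPR3, MAB21L2 and IMPG2 lie above every gene of the other 3 lists in each library, and IMPG2 and NRL drop in WT 3.

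Of 28 genes that recur as medulloblastoma drivers, 25 were detected (89.3%, beside 77.9% of all protein-coding rows) and 16 lay above the median detected gene. OTX2 and MYC led the list per kilobase. SMARCA4, the ATPase of a chromatin remodelling complex, measured 18929.5 ± 2620.4 normalised reads (percentile 97.5). The histone demethylase KDM1A gave 7665 ± 1654 (96.5), CTNNB1, which encodes beta-catenin, 11666 ± 1548 (96.3), and CDK6, a kinase of the cell cycle, 13400.2 ± 2679.6 (90.6). Both GFI1 and GFI1B, repressors switched on by rearrangement in part of Group 3 and Group 4, were at the low end, at 14.6, 13.9 and 16.9 and 0, 1.26 and 3.07 normalised reads. PRDM6, another gene switched on by rearrangement in Group 4, gave 0, 2.52 and 1.54. SNCAIP stood at 173, 153 and 98.2. TERT, the catalytic part of telomerase, was low and uneven at 101, 41.6 and 137.

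Most photoreceptor genes were at low level. Of 33 measured photoreceptor genes 25 were detected (75.8%, beside 77.9% of all protein-coding rows), 7 lay above the median detected gene, and the list's median was percentile 14.5. CRX, the homeobox factor that drives photoreceptor genes and a close relative of OTX2, measured 1772, 1984 and 1833 normalised reads, a spread of only 5.87% (coefficient of variation). Per kilobase OTX2 exceeded CRX by 18.9 ± 2.47 times. GNB3, a cone transducin subunit, gave 3489, 4938 and 1625, and PDE6H, an inhibitory subunit of the cone phosphodiesterase, gave 524, 697 and 357. The rod phosphodiesterase subunits PDE6A and PDE6B gave 729, 417 and 289 and 179, 202 and 253, and ABCA4, the retinoid flippase of outer segments, stood at 718 ± 85.9. The interphotoreceptor retinoid carrier RBP3 gave 193, 258 and 66.8.

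Several genes of rod phototransduction were near 0. RCVRN (recoverin) gave 0, 1.26 and 6.91, SAG (rod arrestin) 14.6, 13.9 and 13.8, GNAT1 (rod transducin) 14.6, 3.15 and 3.07, and CNGA1, the rod channel subunit, 0, 0 and 4.61 normalised reads. Cone counterparts were low as well, with ARR3 at 35.1, 29.01 and 23.03 and GNAT2 at 10.2, 17.7 and 38.4. NR2E3, the nuclear receptor that fixes rod identity, gave 29.3, 8.2 and 9.21. None of these genes exceeded 38.4 normalised reads in any library.

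Neuronal genes formed a mixed picture. Of 32 measured genes of the neuronal cytoskeleton and synapse, 24 were detected and 12 lay above the median detected gene, while 8 were below 10 normalised reads. NEFH, the heavy neurofilament, was the highest, with 35302, 13155 and 19513 normalised reads and 5989 ± 3014 per kilobase (percentile 98.8). Per kilobase it exceeded the medium chain NEFM by 8.74 ± 2.14 times and the light chain NEFL by 24.6 ± 5.53 times. However, 38.9% of the exon bases of NEFM are shared with another annotated gene, and how shared reads were counted is not known. All 3 chains were highest in WT 1. UCHL1, a neuronal ubiquitin hydrolase, gave 7657 ± 882 (percentile 98.5), the RNA-binding protein ELAVL2 7923 ± 2146 (95.6), and the neuronal enolase ENO2 6346 ± 1644 (96.0).

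Several markers of postmitotic neurons were low. DCX, a microtubule protein of migrating neurons, gave 2.93, 15.1 and 1.54 normalised reads, STMN2 13.2, 8.83 and 0, and ELAVL4 none. MAP2, a dendritic microtubule protein, gave 29.3, 25.2 and 13.8. TUBB3, the neuronal tubulin, gave 10.2, 17.03 and 41.4, but 35.8% of its exon bases are shared with another annotated gene, and how shared reads were counted is not known. Synaptic vesicle genes lay between, with SYT1 at 2627 ± 872 and SYP at 450.2 ± 250.4. The granin CHGA was uneven, at 67.4, 3.78 and 1.54, as was its relative CHGB at 179, 90.8 and 11.5.

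Among transcription factors of neural precursors, HES6, an activator of neuronal differentiation, measured 15120.5, 20593 and 14425 normalised reads, 10446 ± 2112 per kilobase, at the 99.4th percentile. NEUROG1, a proneural factor, gave 3356 ± 343 (percentile 95.3) while its relative NEUROG2 was at 1.49. NEUROD1, a differentiation factor of granule cells and photoreceptors, gave 3339.8, 2804 and 974, lowest in WT 3. The inhibitors of these factors, ID1 and ID3, were at percentiles 98.2 and 98.4.

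The neural stem cell list had 14 of 17 measured genes detected (82.4%, beside 77.9% of all protein-coding rows). Its median was percentile 50.2, yet some of its defining members were not detected. The intermediate filaments VIM (7835 ± 1366 normalised reads, percentile 97.2) and NES (4364 ± 839, 85.5) and the surface protein PROM1 (4171 ± 711, 88.5) were high. SOX2, the core stem cell factor, gave 0, 0 and 3.07 normalised reads. FABP7, the fatty acid carrier of radial glia, had no read in any library, and PAX6 was at 17.6, 5.05 and 6.14. Ranked per kilobase, the highest SOX genes were SOX12 (3834 ± 79.5 normalised reads, percentile 86.3), SOX4 (2343 ± 832 normalised reads, 70.8) and SOX9 (931 ± 131 normalised reads, 56.7). SOX11 and SOX8, at 1063 ± 162 and 935 ± 598 normalised reads, were lower per kilobase, and SOX8 did not differ from SOX9 in mean reads by more than the spread of its libraries.

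The 2 Musashi genes, RNA-binding proteins of neural stem cells, were both expressed. MSI1, the gene targeted elsewhere in the study, measured 1586, 1572 and 1378 normalised reads (percentile 76.8), and MSI2 measured 8136, 10003 and 6627 (90.1). Per kilobase MSI2 exceeded MSI1 by 2.12 ± 0.32 times, from 1.88 times in WT 3 to 2.49 times in WT 2. IGF2BP1, an oncofetal RNA-binding protein, stood higher still at 14324 ± 1894 (percentile 94.4). Of 24 RNA-binding proteins of neural tumours 21 were detected, with a median at percentile 71.3. LIN28B gave 320.5 ± 71.8 normalised reads and its paralog LIN28A 6.12 ± 3.73.

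Cerebellar lineage markers gave no single identity. Of 19 measured granule lineage genes 12 were detected (63.2%, beside 77.9% of all protein-coding rows). ZIC1 was at 1092 ± 133 and RELN, the migration signal reelin, at 2599 ± 1033, but BARHL1 was at 1.02. The median of the list was percentile 6.49. TBR1, a T-box factor of glutamatergic cerebellar nuclei and cortical neurons, reached 6827, 8708 and 5003 normalised reads (percentile 88.4). LMX1A, which marks the rhombic lip from which those neurons come, was at 0.976. CALB1, the calcium buffer of Purkinje cells, reached 4693, 8898 and 3183 (percentile 89.5), whereas the other 8 measured genes of the Purkinje and GABAergic list were at 46.2 (FOXP2) or below, with 0.42 for PTF1A and 1.000 for GAD2.

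Of the positional genes, 13 of 25 measured HOX genes were detected, with a median at percentile 1.77. The highest were HOXC4 (338 ± 62.1), HOXC8 (183 ± 27.1), HOXC9 (183 ± 70.01) and HOXC6 (159 ± 27.9 normalised reads), all members of the HOXC cluster. Of the midbrain and hindbrain factors, EN2 was at 24.1 ± 8.62, EN1 at 2.79 ± 2.94 and GBX2 at 0.841 ± 1.46 normalised reads. OTX1, the paralog of OTX2, was at 42.5, 63.1 and 48.4, so that per kilobase OTX2 exceeded it by 449 ± 94.9 times.

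Of 12 measured astrocyte genes and 12 measured oligodendrocyte genes, 8 each were detected, at median percentiles of 18.4 and 7.74. GLUL, glutamine synthetase and a marker of astrocytes, was among the most read genes of all at 95289.5, 93515 and 76875 normalised reads, 14442 ± 1657 per kilobase, percentile 99.5. GFAP was at 8.79, 5.68 and 9.98, S100B at 0, 1.26 and 0, AQP4 at 0, 2.52 and 0 and ALDH1L1 at 0, 1.26 and 0, all of them astrocyte markers. In the oligodendrocyte list CNP (4097 ± 321, percentile 85.5) and MYRF (3976 ± 682, 82.5) lay in the top 20% of detected genes, while MBP (0, 3.15 and 7.68) and OLIG1 (4.39, 0 and 3.84) were undetected and MAG had no read. Each list thus held both high and undetected members, with 7 astrocyte and 5 oligodendrocyte genes above 100 normalised reads.

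Blood cell markers differed by list. None of 10 measured microglia and macrophage genes and none of 4 measured red cell genes reached a mean of 10 normalised reads. The highest means were those of TMEM119 (8.79, 7.57 and 9.98) and CSF1R (2.93, 7.57 and 13.8), and PTPRC, the pan-leukocyte antigen, gave 2.93, 1.26 and 1.54. In the lymphocyte list 4 of 6 measured genes were detected, of which TRAC, the constant segment of the T cell receptor alpha chain, gave 745, 715 and 1076 (percentile 87.0), whereas CD8A gave 23.4, 27.1 and 28.4 and CD79A 8.79, 2.52 and 3.84. In the endothelial list 5 of 9 genes were detected, but PECAM1 (0, 1.26 and 3.07), CDH5 (0, 2.52 and 1.54) and TEK (no read) were not.

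Markers of other tissues were uneven within each list. KRT8, a simple epithelial keratin, gave 4434, 8027 and 11989 normalised reads, and its filament partner KRT18 gave 41.00, 29.01 and 64.5. Per kilobase the ratio of KRT8 to KRT18 was 139 ± 61.5. EPCAM gave 0, 2.52 and 4.61 and CDH1 0, 0 and 1.54. TNNT1, a slow muscle troponin, gave 2404 ± 512 (percentile 95.5), while MYOD1 was at 2.42. Among melanocyte genes GPNMB (3662 ± 1519) and DCT (2286, 2511 and 608) were high, while MLANA (2.93, 3.78 and 6.14) and TYRP1 (0, 2.52 and 4.61) were undetected.

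Of 12 measured germ cell and cancer-testis genes 6 were detected. MAGEA3 (2839.7 ± 186 normalised reads, percentile 94.0), MAGEA6 (2018 ± 119, 90.6) and MAGEA12 (1735 ± 319, 88.9) were high. MAGEA3 and MAGEA6 are near-identical copies, so their separate levels are uncertain. BRDT, the testis bromodomain protein, was very even at 960.5, 906 and 929. Other genes of the list, such as PRAME (5.86, 5.68 and 3.07) and DDX4 (0, 0 and 1.54), were below 10.

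The choroid plexus and retinal pigment epithelium list, which contains OTX2 because OTX2 specifies both tissues, had 8 of 10 measured genes detected. That is 80%, beside 77.9% of all protein-coding rows. AQP1, a water channel, gave 4086, 10307 and 5236 normalised reads, and TTR, the thyroid hormone carrier transthyretin, gave 565, 2305 and 197. RPE65, the retinoid isomerase of the pigment epithelium, gave 473, 2038 and 1098, and the folate receptor FOLR1 gave 780.4, 1025 and 747. In each of these genes WT 2 was the highest library. CLIC6, another choroid plexus gene, had no read in any library.

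**Figure D3:**
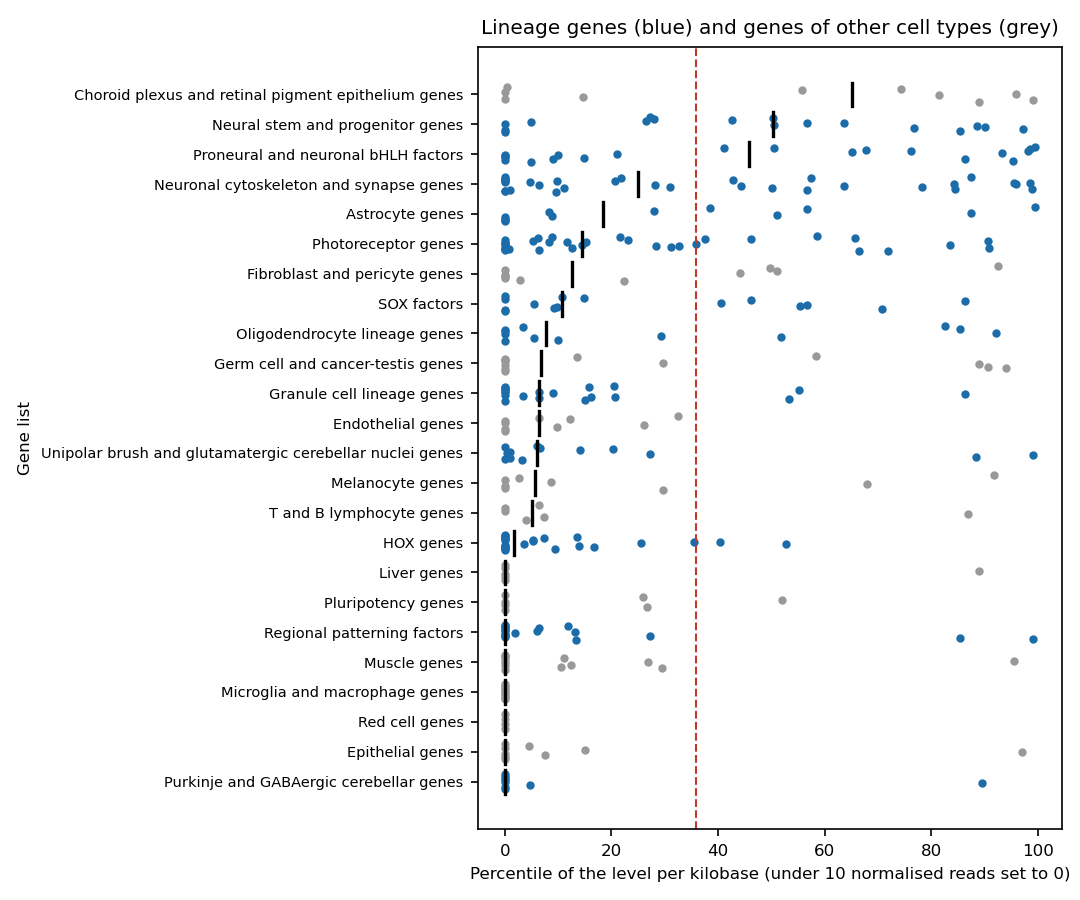
Each point is a gene of a list, placed at the percentile of its mean level per kilobase among detected protein-coding genes, with genes under 10 normalised reads at 0 (blue for neural lineages and patterning, grey for other cell types). Black bars are list medians and the dashed line is the median of all protein-coding genes, 35.8, which the choroid plexus, neural stem cell and proneural lists exceed.

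Among receptors, NPR3 stood alone in its family. NPR1, the guanylyl cyclase that signals for natriuretic peptides, gave 32.2, 44.8 and 47.6 normalised reads and NPR2, its relative for C-type peptide, 5.86, 1.26 and 9.21. Per kilobase NPR3 exceeded NPR1 by 187 ± 49.8 times. The ligand genes were low as well, with NPPC at 16.1, 12.6 and 17.7, NPPA at 5.86, 1.26 and 0.768 and NPPB at 2.93, 1.26 and 0. Of the 7 measured genes of this family 3 were detected, namely NPR3, NPR1 and NPPC.

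Of 58 measured receptor tyrosine kinases 41 were detected (70.7%, beside 77.9% of all protein-coding rows). The list's median was percentile 16.7, and 2 genes lay in the top 10% of detected genes. Those were ERBB2, at 10432, 13046 and 9837 normalised reads (percentile 96.0), and FGFR2, at 5975, 5456 and 4740.4 (91.4). PTK7, a Wnt pathway pseudokinase, followed at 4369 ± 503 (86.3). EGFR, the relative of ERBB2, was low at 169.8, 169.7 and 104, and per kilobase ERBB2 exceeded it by 154 ± 32.7 times. ERBB3 was at 335 ± 66.7 and ERBB4 at 24.5 ± 13.01. IGF1R (931 ± 101), PDGFRA (1278 ± 193) and MET (412 ± 202) lay in the middle, and the neurotrophin receptors NTRK2 (2.93, 0 and 1.54) and NTRK3 (0, 7.57 and 3.07) were undetected.

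Developmental receptors were widely present, with 22 of 23 measured Notch, Hedgehog and Wnt receptors and all 14 TGF-beta and BMP receptors detected. These shares were 95.7% and 100%, beside 77.9% of all protein-coding rows. NOTCH2 was the most read, with 15103, 17015 and 13316 normalised reads (percentile 92.3), at 4.38 ± 0.289 times NOTCH1 per kilobase. FZD7, a Wnt receptor, was the highest per kilobase, at 7659 ± 581 normalised reads (95.2). SMO, the Hedgehog transducer, was at 2077 ± 253 and PTCH1, its inhibitor and a Hedgehog target, at 761 ± 197. BMPR2 was the most read of the BMP receptors at 3894 ± 231.

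Neurotransmitter receptors were sparse. Of 37 measured glutamate and GABA receptor genes 22 were detected, with a median at percentile 2.80 and only GABRA5 above the median detected gene. GRIN2A gave 1135 ± 194 and GRIK3 1728, 839 and 776 normalised reads. The obligate NMDA receptor subunit GRIN1 gave only 26.5 ± 8.75. Of the AMPA receptor genes GRIA2 was the highest, at 27.8, 35.9 and 3.07. Among monoamine, acetylcholine and peptide receptors 17 of 31 were detected. The most read were SSTR2, a somatostatin receptor, at 1830.2, 1863 and 923, and LPAR1, a lysophosphatidic acid receptor, at 1401, 1452 and 619. Both were lowest in WT 3.

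Of 40 measured nuclear receptors 36 were detected, with a median at percentile 17.7. NR2F2 (3036 ± 165), RXRA (2784 ± 419) and NR2F6 (2305 ± 64.01) led by normalised reads, and ESR1 (0, 0 and 3.07) was undetected. In the list of death and cytokine receptors TNFRSF10B, a TRAIL receptor, was the highest at 3679 ± 156 (percentile 87.4). Its relative TNFRSF10A was at 96.9 ± 33.1 and FAS at 33.3 ± 5.43. IL13RA2, a target of cell therapies for brain tumours, had no read in any library.

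Of 21 surface antigens used in cell therapies 17 were detected (81.0%, beside 77.9% of all protein-coding rows). Beside ERBB2, the highest per kilobase were PDPN, podoplanin (4267 ± 171 normalised reads, percentile 92.5), CD276, the checkpoint molecule B7-H3 (3541 ± 455, 89.3), PROM1 and NCAM1 (5395 ± 1522, 87.4). GPC2 gave 802 ± 215. The GD2 synthesis genes B4GALNT1 and ST8SIA1 gave 454 ± 49.8 and 199 ± 30.2. Among immune recognition genes B2M, the common light chain of class I molecules, was even at 612, 634 and 611 (percentile 59.0) and CD274 (PD-L1) was at 14.6, 7.57 and 9.21.

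Proliferation genes were high as a group, with 31 of 33 detected, 17 in the top 10% of detected genes and a median at percentile 90.3. TOP2A, the replication topoisomerase, gave 39937, 44429.7 and 26105 normalised reads (percentile 98.9), and MKI67 gave 29477, 18857 and 14928 (94.2). MCM7, a subunit of the replicative helicase, gave 11733 ± 3104 (98.0). The D-type cyclins differed, with CCND2 at 3603, 3886 and 3603, CCND3 at 1128 ± 99.4 and CCND1 at only 20.5, 8.2 and 28.4 normalised reads. Per kilobase CCND2 exceeded CCND1 by 172 times on average, from 84.3 times in WT 3 to 315 times in WT 2. Of the cell cycle inhibitors CDKN1B gave 3808 ± 548 (percentile 93.0), CDKN2A 133 ± 28.7, and CDKN1C had no read.

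Of 37 measured drug target genes 35 were detected, and 30 lay above the median detected gene (list median at percentile 87.1). PARP1 gave 22639 ± 5308 (percentile 98.8), DNMT1 10772 ± 2809 (95.3) and AURKA 3826 ± 705 (94.3). The survival genes were unequal, with BCL2L1 at 5814, 6102 and 4646 and MCL1 at 4902, 5922 and 6646 normalised reads, whereas BCL2 gave 173, 206 and 165. Per kilobase BCL2L1 exceeded BCL2 by 87.1 ± 8.15 times. However, 43.0% of the exon bases of BCL2L1 are shared with another annotated gene, and how shared reads were counted is not known. The undetected members were CDK7 (10.2, 10.1 and 3.07) and TUBB (10.2, 5.68 and 1.54). TUBB lies in the low interval of chromosome 6 described below. Why either row is low was not tested, so absence of CDK7 or TUBB cannot be concluded.

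Protein synthesis genes filled the top of the rows described, which leave out mitochondrial genome mRNAs. Of the 30 protein-coding genes highest per kilobase 17 encoded ribosomal proteins, and of the top 100 there were 52. The 77 measured ribosomal protein genes took 9.04, 9.03 and 8.07% of the normalised reads of WT 1, WT 2 and WT 3. ACTG1, cytoplasmic gamma actin, was first per kilobase at 77759.9 ± 11964, at 2.43 ± 0.204 times ACTB. The elongation factor EEF1A1 was second per kilobase at 60128 ± 15093 and first by reads, at 317404, 292721 and 190954. The next places per kilobase went to the ribosomal protein genes RPS2, RPS27 and RPL19.

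Outside translation and housekeeping, several genes of narrower use ranked among the highest. GPX3, a secreted glutathione peroxidase, gave 46761, 63837 and 43103 normalised reads (29159.8 per kilobase, percentile 99.8). LAPTM4B, a lysosomal membrane protein, gave 57996, 82482 and 75575 (22697 per kilobase). CRABP2, a carrier of retinoic acid picked after its values were seen, gave 21609.6, 18500.5 and 16188 (18166 per kilobase). All of them kept a percentile above 99 in each library. Among long noncoding RNAs GAS5 (6495, 9162 and 12147 normalised reads), NORAD (7229, 6789 and 8799) and MALAT1 (5700, 4976 and 8293) were each highest in WT 3, while the imprinted H19 had no read and MEG3 gave 0, 0 and 1.54.

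Among the rows described, which leave out mitochondrial genome mRNAs, reads were spread over many genes rather than held by a few. The 100 most read genes took 20.1, 19.3 and 17.2% of the normalised reads of WT 1, WT 2 and WT 3 (18.9% ± 1.49), and the 10 most read took 5.39, 5.19 and 4.42%. By level, 327 rows above 10000 normalised reads held 32.5% of the reads and 4947 rows between 1000 and 10000 held 55.2%. Detected rows numbered 16031, or 50.4% of the table. Rows under 1 normalised read numbered 8037, and 2120 had no read in the 3 libraries. Each row of the table has a read in at least 1 of the 6 libraries, so this count of silent rows rests on that choice of rows. Of the row classes, 77.9% of protein-coding rows, 21.0% of lincRNA rows and 18.9% of processed pseudogene rows were detected.

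Promoter sequence was set beside level, as a description. RefSeq (build GRCh38.p14) gave exactly 1 promoter entry for 9087 protein-coding genes, each of 250 bases before to 50 after the start of transcription. A promoter was called CpG-rich at a GC content of at least 50% and an observed over expected CpG ratio of at least 0.6. The share of CpG-rich promoters was 37.9% under 10 normalised reads, 61.2% between 10 and 100, 85.5% between 100 and 1000, 92.5% between 1000 and 10000 and 94.2% above 10000. Over all of these genes it was 74.6%. The TATA box letters TATAAA, on either strand, were in 13.7% of promoters under 10 normalised reads, in 4.03% between 1000 and 10000, and in 9.30% above 10000. The E-box letters CACGTG, which MYC with MAX can bind, were in 7.02% under 10 normalised reads, 11.0% between 1000 and 10000 and 8.72% above 10000. A match in these letters is a description of the sequence and no evidence of binding.

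The first transcribed bases were compared as well. A start with C followed by 4 pyrimidines, the mark of genes whose translation follows growth signals, was found in 76.9% of ribosomal protein genes (40 of 52), in 30.2% of all genes above 10000 normalised reads and in 5.14% of all 9087. Without ribosomal protein genes the share above 10000 was 15.8%. Of the promoters of detected photoreceptor genes, 1 of 14 was CpG-rich and 4 of 14 (28.6%) held TAATCC, letters that CRX and OTX2 can bind, against 4.81% of all promoters. Of the promoters of photoreceptor genes under 10 normalised reads, 0 of 3 were CpG-rich and 1 of 3 held TAATCC. With 14 and 3 promoters these shares are counts only.

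The 100 bases before the start are shown for 8 genes in order to set high genes with CpG-rich and CpG-poor promoters beside FABP7, a gene without reads. They are from RefSeq, GRCh38.p14, written 5′ to 3′ in the direction of transcription, and capitals mark the TATA box TATAAA, the E-box CACGTG, the homeobox letters TAATCC, the GC box GGGCGG and the CCAAT box, on either strand. OTX2 has 2 listed starts, of which the first is printed.
EEF1A1 (chr6:73521033-73521132, minus strand): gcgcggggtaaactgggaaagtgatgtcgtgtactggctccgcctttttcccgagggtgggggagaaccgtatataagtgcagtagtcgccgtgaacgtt
ACTG1 (chr17:81512800-81512899, minus strand): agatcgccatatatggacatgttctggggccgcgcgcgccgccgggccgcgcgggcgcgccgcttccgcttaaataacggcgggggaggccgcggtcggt
HES6 (chr2:238240039-238240138, minus strand): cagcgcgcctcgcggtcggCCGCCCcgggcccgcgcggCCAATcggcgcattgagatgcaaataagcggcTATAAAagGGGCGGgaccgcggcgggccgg
OTX2 (chr14:56810480-56810579, minus strand): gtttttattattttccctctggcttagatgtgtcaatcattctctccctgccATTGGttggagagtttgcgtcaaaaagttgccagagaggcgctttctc
IMPG2 (chr3:101320576-101320675, minus strand): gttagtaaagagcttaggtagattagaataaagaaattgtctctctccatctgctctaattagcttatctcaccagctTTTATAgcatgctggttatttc
CRX (chr19:47821837-47821936, plus strand): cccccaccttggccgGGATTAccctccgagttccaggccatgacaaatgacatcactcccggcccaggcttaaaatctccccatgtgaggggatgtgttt
TBR1 (chr2:161416197-161416296, plus strand): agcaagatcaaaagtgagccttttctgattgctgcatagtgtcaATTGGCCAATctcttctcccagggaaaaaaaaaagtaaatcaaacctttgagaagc
FABP7 (chr6:122779616-122779715, plus strand): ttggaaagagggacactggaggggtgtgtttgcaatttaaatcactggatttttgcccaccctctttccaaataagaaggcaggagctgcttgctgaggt

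Genes of high level had promoters of more than 1 type. HES6, at 16713 normalised reads, had a GC content of 78.0% over the 300 bases, a TATAAA that begins 30 bases before the start, and GC boxes 81 and 22 bases before it. Neither start listed for OTX2, at 23664 normalised reads, met the CpG-rich rule. IMPG2 (9663 normalised reads) had a GC content of only 35.3%, with TATAAA letters on the opposite strand 22 bases before the start. CRX (1863) carried TAATCC letters on the opposite strand, 85 bases before its start. TBR1 (6846) held a pair of adjoining CCAAT matches on opposite strands and was CpG-poor, as was FABP7, which had no read.

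The 3 libraries gave Pearson correlations across the 16031 detected rows of 0.979 for WT 1 with WT 2, 0.971 for WT 1 with WT 3 and 0.977 for WT 2 with WT 3 on the log2 scale. These are correlations across genes, which are not independent replicates. The median coefficient of variation was 17.6% over detected rows and 14.2% over the 11286 named genes of at least 100 normalised reads. For these named genes counting error alone would give 3.25% if reads are independent. A coefficient above 50% was seen in 202 of these genes. The most even included VAPB (1991, 1982 and 1989.5 normalised reads), IQGAP3 (2770.2, 2776 and 2756) and JARID2 (1182, 1190.1 and 1188).

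The genes that varied most were often high in 1 library only. DNAJA3, a mitochondrial co-chaperone, gave 32.2, 349 and 17.7 normalised reads, and PCGF2, a Polycomb subunit, gave 35.1, 305 and 15.4, both high in WT 2. HSPA6, a heat-inducible chaperone, gave 73.2, 24.6 and 370, and MLLT6 gave 61.5, 52.3 and 379, both high in WT 3. PCGF2 and MLLT6 lie near each other on chromosome 17 (chr17:38733897-38749817 and chr17:38705542-38729803), and DNAJA3 lies near NMRAL1 (111, 29.6 and 266) on chromosome 16. Within each of these pairs the neighbours were highest in different libraries. PRPF31 and NELFE, which lie in low intervals described below, were likewise high in 1 library alone. Why such rows differ between libraries was not tested, and how reads were counted is not known. TTR and PRND, the gene of the prion-like protein doppel (370.4, 2015 and 785), were high in WT 2.

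Differences between libraries ran through whole gene groups. Over 10569 protein-coding genes of at least 100 normalised reads, the median log2 deviation from the mean of the libraries was 0.01, 0.03 and -0.04 in WT 1, WT 2 and WT 3. Of these genes 3912 were highest in WT 1, 3871 in WT 2 and 2786 in WT 3, and 4402 were lowest in WT 3, the most frequent lowest library. For 13 photoreceptor genes it was 0.24, 0.25 and -0.51, and 10 of the 13 were lowest in WT 3. For 17 neuronal cytoskeleton and synapse genes it was 0.27, 0.26 and -0.47, with 12 lowest in WT 3. Photoreceptor and neuronal transcripts were thus lower together in WT 3. All 6 choroid plexus and retinal pigment epithelium genes of at least 100 normalised reads were highest in WT 2, at a median of 0.53. For 30 proliferation genes the medians were 0.22, -0.01 and -0.23, with 20 highest in WT 1 and 24 lowest in WT 3. For 25 housekeeping genes the medians were 0.16, -0.01 and -0.15, with 16 highest in WT 1 and 17 lowest in WT 3, and 55 of 73 ribosomal protein genes were lowest in WT 3. For 12 death and cytokine receptors the medians were -0.27, 0.04 and 0.19. Depth differed between the libraries too (17299671, 38790342 and 29173018 reads), and its part in these differences was not tested.

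**Figure D4:**
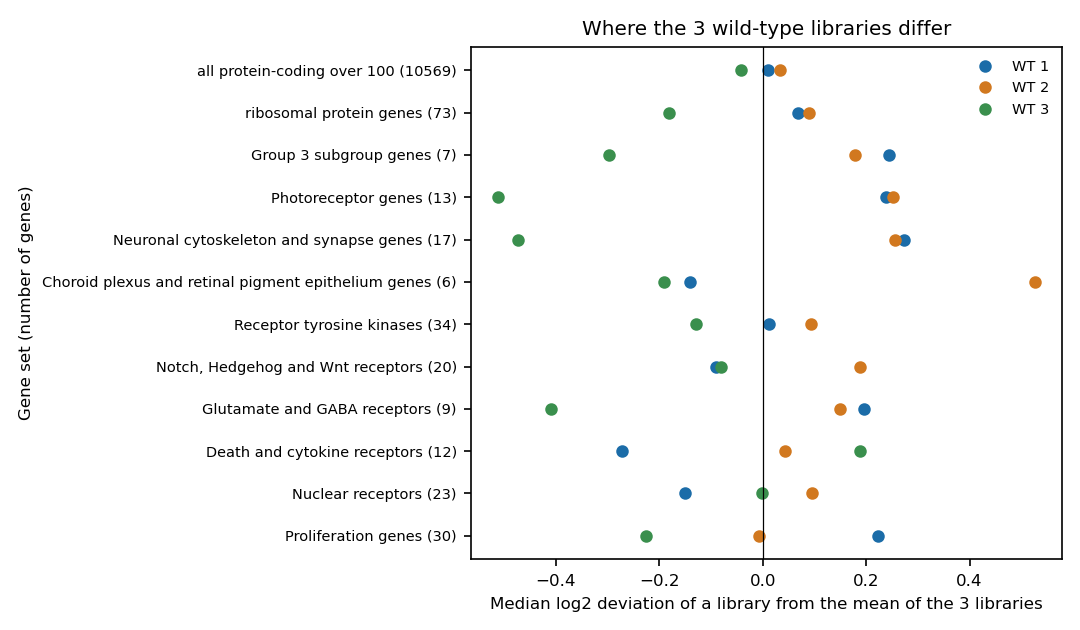
Median log2 deviation of each wild-type library from the mean of the 3 for gene groups, with the number of genes of at least 100 normalised reads in parentheses. Photoreceptor and neuronal genes sit near -0.5 in WT 3, and choroid plexus and retinal pigment epithelium genes at 0.53 in WT 2, while all genes lie near 0.

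Some chromosome intervals held low values even for genes that nearly every cell uses. Between 29.6 and 33.4 Mb of chromosome 6, an interval chosen after the values were seen that holds the MHC genes, 10 of 67 protein-coding rows were detected (14.9%), against 58.3% and 74.5% in intervals of the same length on either side. Among the low rows were RPS18, a ribosomal protein (2.93, 13.9 and 3.84 normalised reads), TUBB, a main beta-tubulin (10.2, 5.68 and 1.54), and CSNK2B (0, 2.52 and 0). HLA-B (0, 1.26 and 1.54) and HLA-C (0, 0.631 and 0) lie in the same interval and share this limit. BRD2 was the highest gene there, at 221, 180.4 and 293. DDR1, RXRB and TAPBP, which belong to the receptor and immune lists, lie there too. Why these rows are low was not tested.

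**Figure D5:**
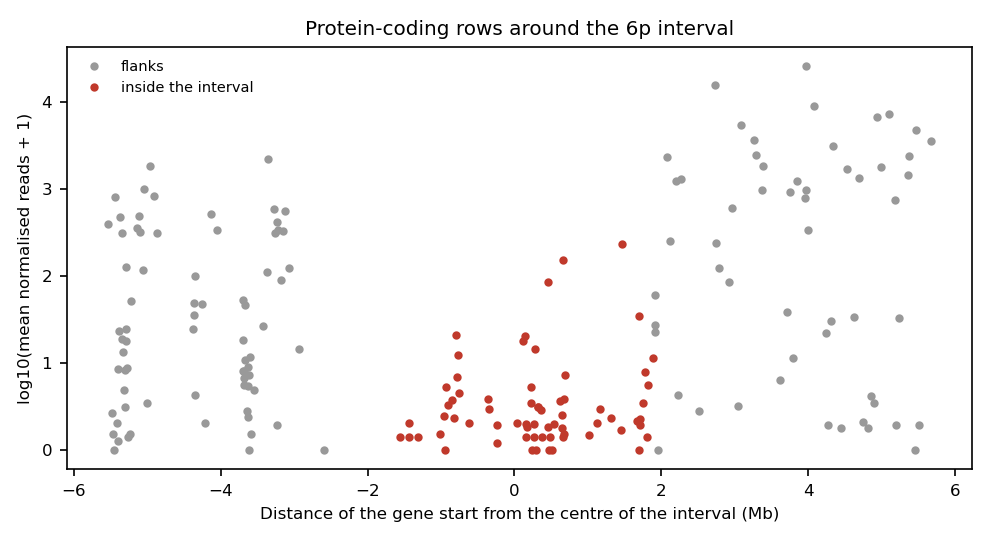
Log10 of mean normalised reads plus 1 for protein-coding rows of chromosome 6 by distance of the gene start from the centre of the low interval (Mb), inside (red) and in flanks of the same length (grey). Inside, 10 of 67 rows reach 10 normalised reads and the highest is BRD2 at 232, while rows in the right flank reach 25491.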

How the data were processed

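RNA sequencing of 3 wild-type D283 libraries was described. The authors' deposited table gives 1 log2 value per gene and library after size-factor scaling and a variance-stabilising function, going by its name and values. The submitters' processing notes name STAR, DESeq, CASAVA 1.8.2, Trim Galore, MultiQC and FastQC, with the build GRCh38. The read counter, its annotation, filters and strand setting are not given in these sources.

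The deposited log2 values were inverted (lowest value 5.79, offset 55.2), which gave whole reads for 100% of values (tolerance 0.01), with 1 step per library. This gave depth and normalised reads. Of 31785 rows, 30351 matched GENCODE 29, which supplied transcript lengths for 16491 protein-coding rows, and 1434 did not match. Calculations used Python 3.11.15, numpy 2.4.6, pandas 2.3.3 and scipy 1.17.1, and figures matplotlib 3.10.9. The inversion was also run on data simulated with the same function and offset. Recovery there cannot show that the authors' function has this form. No test between groups was made, and a count of 0 in all 3 libraries allows 3 reads if reads are independent, which covers counting error only. In low rows a library with reads often had 2 of them, as in PDCD1LG2 (2, 2 and 2 reads) and HLA-B (0, 2 and 2). These limits and the counting error given may therefore be too small.

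The members and the 46 gene lists (837 genes, 720 with a row, 519 detected) were chosen with earlier results of these data known. Genes named are MYC, OTX2 and NPR3, list members, the 30 highest by reads and per kilobase, the 15 that spread most and the 10 that spread least, and genes of low intervals, which were picked after their values were seen. Alternatives were other lengths, detection levels, scalings and leaving out each library. Some listed genes are not reported here.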

Additional observations from a re-analysis of the deposited data

How the results depend on the processing

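No paired analysis was possible because a single group was described and no test between groups was made. Of 67 recomputed values 49 stayed within the spread of the libraries or within 1.5 times the count, and 18 moved. MYC stood at percentile 99.0, or 98.3 by coding length and 98.8 without a length or on the deposited scale. OTX2 stood at 99.2, or 99.4 by total exon length, 99.2 without a length or on the deposited scale, and 99.3 among all detected rows. NPR3 stood at 94.6, or 97.2 by coding length, 98.2 without a length, 98.2 on the deposited scale and 95.3 among all detected rows. The median of the SHH list was 5.37, or 8.01 without a length. Rows without a read numbered 2120, and from 2955 to 5053 when 1 library was left out and fewer reads were counted. With 17299671 reads in the shallowest library, a level under its limit of 4.39 normalised reads (3 independent reads) cannot be told from 0 there. The median coefficient of variation was 17.6%, or 15.5% from 30 and 14.2% from 100 normalised reads, and from 13.0% to 16.3% when 1 library was left out. The count of detected rows, 16031, depended on the detection level. It was 23748 at a mean of at least 1 normalised read, 13497 at 30 and 11323 at 100. With at least 10 normalised reads in every library it was 14825. It was 15673 without the low interval of chromosome 6 and without genes that share over 50% of their exon bases, a setting chosen after seeing the data. Leaving out mitochondrial genes was not run, because mitochondrial genome mRNAs were not analysed here.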

Other observations

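Low rows were also seen in 2 other stretches, likewise picked after their values were seen. Between 45.5 and 46.8 Mb of chromosome 17, 2 of 7 protein-coding rows were detected, with KANSL1, a chromatin regulator, at 20.5, 19.6 and 9.21 normalised reads and NSF, a membrane fusion ATPase, at 26.4, 3.78 and 7.68. The flanks of the same length had 83.3% and 86.4% detected. Between 54 and 55 Mb of chromosome 19, 6 of 8 rows were detected, against 68.8% and 65.9% in its flanks, but the median was 16.4 normalised reads against 169.8 and 136. There the ribosomal protein gene RPS9 gave only 35.1, 15.1 and 16.9, and PRPF31, a splicing factor, gave 227, 2.52 and 4.61, high in WT 1 alone. In the chromosome 6 interval NELFE, a transcription pausing factor, gave 14.6, 9.46 and 229, high in WT 3 alone.

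Detection differed with the share of exon bases that a gene has in common with another annotated gene. Of the 101 protein-coding rows that share over 90% of their exon bases, 11 (10.9%) were detected, against 52.6% of the 443 that share 50 to 90%, 75.4% of the 8808 that share none, 84.8% of the 4526 that share up to 10% and 81.2% of the 2613 that share 10 to 50%. Low detection was thus seen in the classes above 50%, but not for every gene in them. SRSF1, a splicing factor with 60.7% of its exon bases shared, was detected at 773, 1167 and 1968 normalised reads.

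Processed pseudogenes made up 10 of the 60 genes that varied most between the libraries, and 1.72% of all genes of at least 100 normalised reads. The pairs named here were picked after their values were seen. RPSAP47 gave 2583, 999.6 and 716 normalised reads beside 42303, 47200.3 and 33426 for its parent gene RPSA. HNRNPA1P10 gave 3454, 1059 and 801 beside 61926, 48229.6 and 41854 for HNRNPA1. YBX1P10 gave 1728, 593 and 459 beside 55242, 32591 and 27098 for YBX1, and in these 3 pairs the pseudogene had a larger coefficient of variation than its parent. Processed pseudogenes took 0.883, 0.761 and 0.700% of the reads of WT 1, WT 2 and WT 3. How reads matching both copies were counted is not known.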
